A study of Caenorhabditis elegans with 2 samples.

Results

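The mitochondrial ribosomal protein genes of Caenorhabditis elegans were taken as all protein-coding genes of the Ensembl release 115 annotation (assembly WBcel235, the same sequence as ce11) whose symbol is mrpl- or mrps- followed by a number. The rule found 70 of 19973 protein-coding genes, 41 for the large subunit (mrpl) and 29 for the small subunit (mrps). COG-1 was mapped by ChIP-seq, which sequences the DNA that comes down with a precipitated protein, in 2 biological replicates that form 1 group. Both were whole hermaphrodite mid-embryos of strain OP541, genotype unc-119(tm4063) III; wgIs541, taken 3 h after synchronization by egg bleaching. The transgene adds a GFP-FLAG tag to the C-terminal end of COG-1, and the immunoprecipitation used an antibody to GFP. Both replicates carry the same mutation and the same transgene. Whole embryos do not resolve the cell type in which a site was bound, and an untagged or input library was not analysed here. In the list of peaks thresholded by the irreproducible discovery rate (IDR), which compares ranks between replicates, a peak was counted for a gene when its summit fell no more than 1000 bp before the annotated start and no more than 500 bp after it. Coordinates are those of ce11, counted from 1, and negative distances are upstream of a start. The 1841 IDR peaks were the regions of highest signal among the 22583 regions called on the pooled replicates, so a rank is a place in the order of that signal. With 1 group there was no contrast between samples to test, and genes and peaks are not replicates, so counts stand beside the same counts over all genes and no test was made.

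Mitochondrial ribosomes translate the few proteins that mitochondrial DNA encodes, all of them subunits of the respiratory chain and the ATP synthase. Their own proteins are encoded in the nucleus, made on cytosolic ribosomes and imported. Some have counterparts in bacterial ribosomes and others are found in mitochondria alone. In C. elegans, mrps-5 is known because its knockdown lengthens life, and many genes for mitochondrial proteins lie in operons, where several genes on 1 strand are transcribed together from a start before the first gene. COG-1, an NK6-type homeodomain protein, is known for setting cell fates in the ASE taste neurons and the vulva.

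The DNA under 6 of the 13 peaks at these genes is shown because 4 of these windows hold the letters GCGCTCC near the summit and the windows at mrps-7 and mrps-34 do not. Each run is the RefSeq WBcel235 sequence from 50 bp before to 50 bp after the summit, written 5′ to 3′ on the strand of the named gene, with GCGCTCC in capitals. The windows are chrIV:443818-443918 (plus strand) for mrpl-55, chrIII:1202314-1202414 (minus) for mrpl-45, chrV:12728415-12728515 (plus) for mrpl-49, chrIV:7709835-7709935 (minus, the strand of mrpl-1) for mrpl-1 and mrps-24, chrIV:14767831-14767931 (minus) for mrps-7 and chrIII:4542507-4542607 (minus) for mrps-34.
mrpl-55: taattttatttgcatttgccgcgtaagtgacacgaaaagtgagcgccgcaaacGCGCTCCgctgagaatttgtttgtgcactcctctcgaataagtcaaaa
mrpl-45: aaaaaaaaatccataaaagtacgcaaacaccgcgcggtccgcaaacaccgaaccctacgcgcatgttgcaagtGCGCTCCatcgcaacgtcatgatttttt
mrpl-49: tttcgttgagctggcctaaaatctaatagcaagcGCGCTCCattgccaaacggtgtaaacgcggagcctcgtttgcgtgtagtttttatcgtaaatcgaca
mrpl-1 and mrps-24: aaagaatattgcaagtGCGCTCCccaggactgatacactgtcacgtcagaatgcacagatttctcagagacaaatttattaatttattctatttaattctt
mrps-7: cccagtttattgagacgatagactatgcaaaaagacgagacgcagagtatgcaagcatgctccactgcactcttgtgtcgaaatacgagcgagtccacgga
mrps-34: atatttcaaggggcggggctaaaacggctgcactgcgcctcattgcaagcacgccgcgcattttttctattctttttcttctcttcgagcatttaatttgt

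The letters were picked after the sequences had been read, so their count describes these windows and carries no test. On either strand, GCGCTCC lay within 50 bp of the summit at 5 of the 13 peaks (38.5%), those of mrpl-55, mrpl-45, mrpl-49, mrpl-47 and the pair mrpl-1 and mrps-24. The median distance of the letters from the summit was 13 bp and the farthest was 31 bp. The same letters lay in 56 of the 1023 other IDR peaks at protein-coding starts (5.47%), in 75 of all 1841 IDR peaks (4.07%) and in 0.561% of the 101 bp windows directly upstream of all protein-coding starts. They were in 0 of the 7 weaker regions at these genes that are described further on, too few to bound the share closely. Of the 13 peaks at heads of gene chains, also described further on, 1 held them. The 101 bp windows directly upstream of the 70 genes of the family held them in 0 cases. That count depends on the window, since 201 bp upstream windows held them at 5 of the 70, against 1.33% of all starts. The longer windows take in summits from which the letters were picked, such as that of mrpl-55. Another 4 strings were counted in the same way, of which 3 are nested in the first. The letters GCGCTC were found at 6 of 13 peaks (46.2%) and 15.4% of the other peaks at starts, with 12.5% of IDR peaks and 1.58% of upstream windows. CGCTCC was found at 5 (38.5%) and 11.1%, with 7.88% of IDR peaks and 1.5% of upstream windows. GCTCC was found at 7 (53.8%) and 16.8%, with 14.6% of IDR peaks and 7.53% of upstream windows. TTGCAAG was found at 3 peaks (23.1%), those of mrpl-45, mrps-34 and the pair mrpl-1 and mrps-24, and at 3.71% of the other peaks at starts, with 2.93% of IDR peaks and 1.17% of upstream windows. In the windows of mrpl-45 and of mrpl-1 it directly precedes the capitals but for 1 base.

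An IDR peak was held by 14 of the 70 mitochondrial ribosomal protein genes (20%, exact Clopper-Pearson 95% interval 11.4 to 31.3%), against 6.82% of all protein-coding genes. None of these 70 genes lies on the X chromosome, and over the autosomes 6.62% of genes held a peak. The interval covers counting error only. The large subunit had 10 of 41 genes with a peak (24.4%) and the small subunit 4 of 29 (13.8%), a difference that was not tested. No gene of the family held more than 1 peak, and mrpl-1 and mrps-24 shared theirs, so that 13 distinct peaks stood behind the 14 genes. Signals at these peaks ran from 79.2 to 179.8 with a median of 100.3. Over the whole IDR list they ran from 77.7 to 769 with a median of 111. The 13 peaks had a median rank of 1146, and the 1036 peaks at any protein-coding start had one of 916.5. Only the peak of mrpl-23 was among the 460 of highest signal, and 6 of the 13 were among the 920 of highest signal. The family's median signal was thus below that of the whole list, though its peaks lay on both sides of the list's midpoint.

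**Figure D1:**
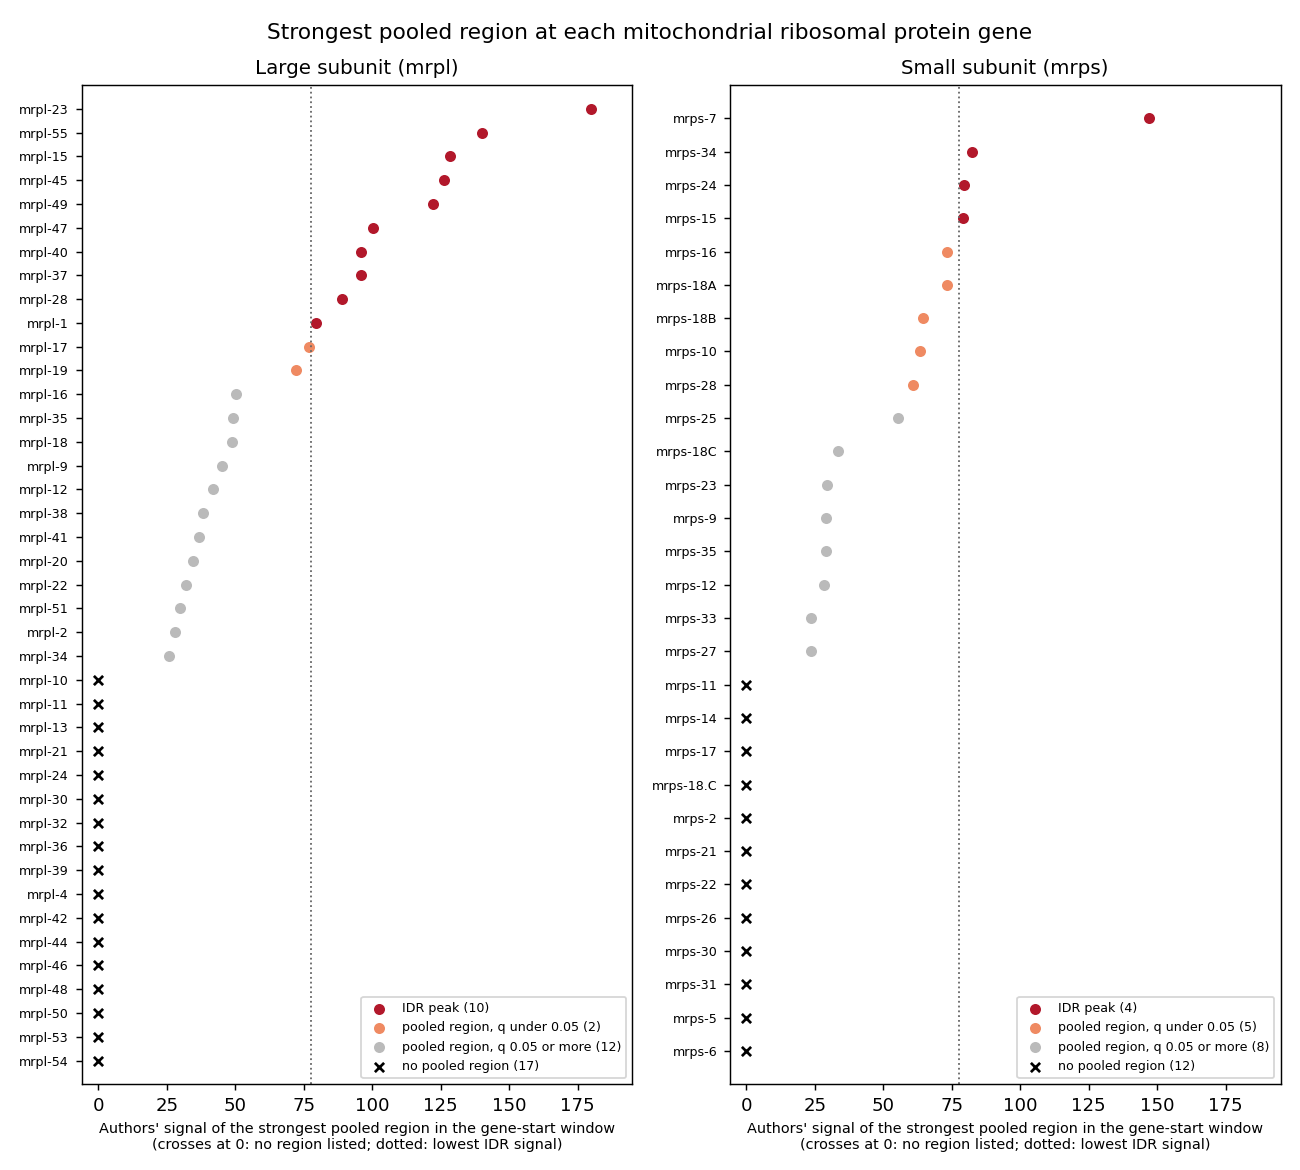
The authors' signal (linear axis) of the strongest pooled region in the start window is plotted for every large-subunit gene (left) and small-subunit gene (right), with 1 point per gene and crosses at 0 where no region was listed. The 14 genes with an IDR peak lie to the right of the dotted line at 77.7, 21 genes have a region with q under 0.05, and 29 have no pooled region.

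Among large-subunit genes, the strongest peak was that of mrpl-23, which encodes the counterpart of a bacterial protein beside the exit of the peptide tunnel. The peak (chrI:6212629-6213078, rank 282, signal 179.8) had a signal of 77.0 in replicate 1 and 101 in replicate 2. With its summit 969 bp upstream of mrpl-23, it was the peak nearest to the edge of the window. That summit lay inside an intron of the upstream gene fars-1, a tRNA synthetase gene, in exons of the non-coding RNA T08B2.14 and of a pseudogene, and 30 bp from the snoRNA gene T08B2.13. The peak of mrpl-15 (chrI:1435405-1435854, rank 659, signal 128) also lay far from the start, at -649 bp, in intergenic sequence. It ranked 492 in replicate 1 (signal 64.2) and 1072 in replicate 2 (signal 60.2).

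Peaks close to the start were the more common form. The summit at mrpl-55, a gene for a protein known in animal mitochondria and not in bacteria, lay 117 bp upstream (chrIV:443643-444092, rank 540, signal 140), with 53.9 in replicate 1 and 83.7 in replicate 2. At mrpl-49 it lay 166 bp upstream (chrV:12728240-12728689, rank 736, signal 122), with 49.5 and 71.6. At mrpl-45, whose protein anchors the ribosome to the inner membrane in mammals, it lay 356 bp upstream (chrIII:1202139-1202588, rank 687, signal 126), with 47.9 and 71.0. These 3 peaks were alike in signal in each replicate. The summit of mrpl-47 lay 9 bp inside the gene, in its 5′ untranslated region (chrI:5244067-5244516, rank 1146, signal 100.3), with 42.2 and 55.1. It was the only one of the 14 genes with its summit downstream of the start.

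The other 4 large-subunit genes with a peak had one that ranked low in 1 of the replicates. At mrpl-28 (chrII:155860-156309, rank 1419, signal 89.1, summit at -76 bp) the signal was 50.9 in replicate 1, where it ranked 864, and 33.2 in replicate 2, where it ranked 3278. At mrpl-40 (chrIII:87114-87563, rank 1234, signal 95.8, -220 bp) the order of the ranks was the other way. The signal was 27.6 in replicate 1 (rank 3557, q = 0.273) and 67.1 in replicate 2 (rank 853). The peak of mrpl-37 (chrII:13575498-13575947, rank 1235, signal 95.8, -655 bp) had 34.2 in replicate 1 (rank 2108, q = 0.0539) and 56.7 in replicate 2 (rank 1196). At mrpl-1, the gene for the protein of the mobile L1 stalk in ribosomes, the peak it shares with mrps-24 (chrIV:7709660-7710109, rank 1776, signal 79.4) had 41.0 in replicate 1 (rank 1392) and 35.7 in replicate 2 (rank 2882). The low replicate was thus replicate 1 for mrpl-37 and mrpl-40 and replicate 2 for mrpl-28 and mrpl-1.

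Among small-subunit genes, mrps-7 held the one strong peak. Its protein has a bacterial counterpart that binds ribosomal RNA early in the assembly of the small subunit. The peak (chrIV:14767656-14768105, rank 489, signal 147, summit at -151 bp) had 61.4 in replicate 1 and 85.9 in replicate 2, ranks 557 and 486. The other 3 small-subunit genes with a peak stood near the end of the list. For mrps-34, a gene for a protein known from mitochondrial and not from bacterial ribosomes, the peak (chrIII:4542332-4542781, rank 1681, signal 82.2, -105 bp) had 23.3 in replicate 1 (rank 5823, q = 0.519) and 57.6 in replicate 2 (rank 1167). For mrps-15 (chrI:8692442-8692891, rank 1787, signal 79.2, -45 bp) the values were 30.5 (rank 2725, q = 0.147) and 47.6 (rank 1679). The mrps-24 start lay 160 bp from the summit of the peak at mrpl-1. In the list of replicate 1 alone, cut to the same length of 1841 regions, the small-subunit genes with a region numbered 2, mrps-7 and mrps-24.

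The summits stood close to the starts. The median distance was 163 bp over the 14 genes and 268 bp over all 1418 pairs of a protein-coding gene and an IDR peak in its window. For 13 of the 14 genes the summit was upstream, as in 93.4% of all pairs, and for 10 of 14 it lay within 250 bp, against 47.1% of all pairs. Of the 13 summits, 10 lay in intergenic sequence, a share that is not given here for all peaks. None lay within 500 bp of a tRNA gene, where 142 of all 1841 IDR peaks lay, and 13 peaks are too few to tell these apart.

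A neighbouring gene also counted most of these peaks. Of the 13, 8 also lay in the window of a gene outside the family (61.5%), and of the 1036 peaks at any start, 356 had a second gene's window over them (34.4%). The 5 peaks in the window of 1 gene alone were those of mrpl-15, mrpl-23, mrpl-28, mrpl-47 and mrpl-55. The peak of mrpl-49 was shared with rpl-28, a cytosolic large-subunit ribosomal protein gene (-353 bp), and that of mrps-15 with asg-1, a gene for an ATP synthase subunit (-279 bp). The peak of mrps-7 was shared with Y57G11C.3 (-320 bp) and that of mrps-34 with cisd-3.1 (-324 bp). In these 4 cases the mitochondrial ribosomal gene had the nearer start. The reverse held for the other 4 shared peaks. The summit at mrpl-45 was nearest to Y119D3B.12 (182 bp), that at mrpl-37 to lin-38 (202 bp), that at mrpl-40 to F54C4.4 (42 bp inside that gene, in its 5′ untranslated region), and that at mrpl-1 and mrps-24 to emc-6, an ER membrane complex gene (149 bp). The mrpl-40 peak also lay 955 bp upstream of attf-3. With 1 shared summit, the ChIP-seq lists cannot tell which of the genes it belongs to.

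**Figure D2:**
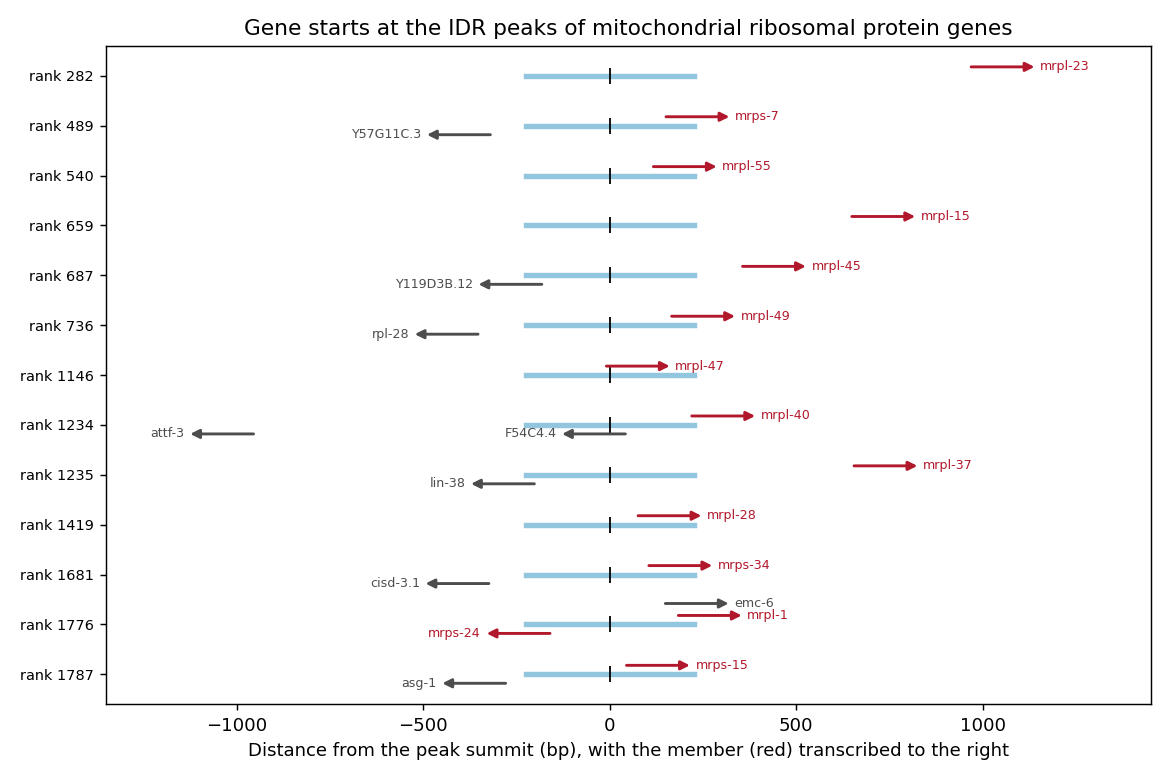
Each row is 1 of the 13 IDR peaks, drawn to scale in bp from its summit (black tick) with the peak in blue, and arrows mark the starts and directions of the mitochondrial ribosomal protein genes (red) and of other genes (grey) whose windows hold it. The red starts lie to the right of the summit except that of mrpl-47, at 9 bp to the left, and that of mrps-24, which is transcribed to the left from 160 bp.

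When each IDR peak was given to the nearest protein-coding start alone, at any distance, 11 of the 70 genes received one (15.7%), against 8.16% of all genes. By this rule mrpl-1, mrpl-37, mrpl-40, mrpl-45 and mrps-24 lost their peaks to neighbours. The genes mrpl-20 and mrpl-51 gained one. The summit given to mrpl-20 lay 2847 bp upstream of it (rank 113, signal 237), and that given to mrpl-51 lay 1345 bp downstream of its start (rank 343, signal 166), both outside the window.

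Every one of the 13 peaks had a region at its summit in the list of each replicate. The q-value was under 0.05 at 13 peaks in replicate 2 and at 9 in replicate 1, and at 9 (69.2%) in both, against 84.4% of all IDR peaks (1554). The peaks of mrpl-37, mrpl-40, mrps-15 and mrps-34 were the 4 that missed it in replicate 1. By rank, 7 of 13 (53.8%) were among the 1841 strongest regions of both replicates, against 69.2% of all IDR peaks. Those were the peaks of mrpl-15, mrpl-23, mrpl-45, mrpl-47, mrpl-49, mrpl-55 and mrps-7.

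The genes were also counted from 1 replicate at a time, with the 1841 strongest regions of each. Replicate 1 gave 10 of the 70 genes (14.3%), where 6.49% of all genes had a region. Replicate 2 gave 13 of the 70 (18.6%), where 6.75% of all genes had one. The gene sets overlapped in part. Besides the 7 found in both, replicate 1 had mrpl-1, mrpl-28 and mrps-24, and replicate 2 had mrpl-37, mrpl-40, mrps-15, mrps-34 and the 2 genes mrpl-19 and mrps-18A, which hold no IDR peak. The pooled list thus counted 7 genes that only 1 replicate placed that high.

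**Figure D3:**
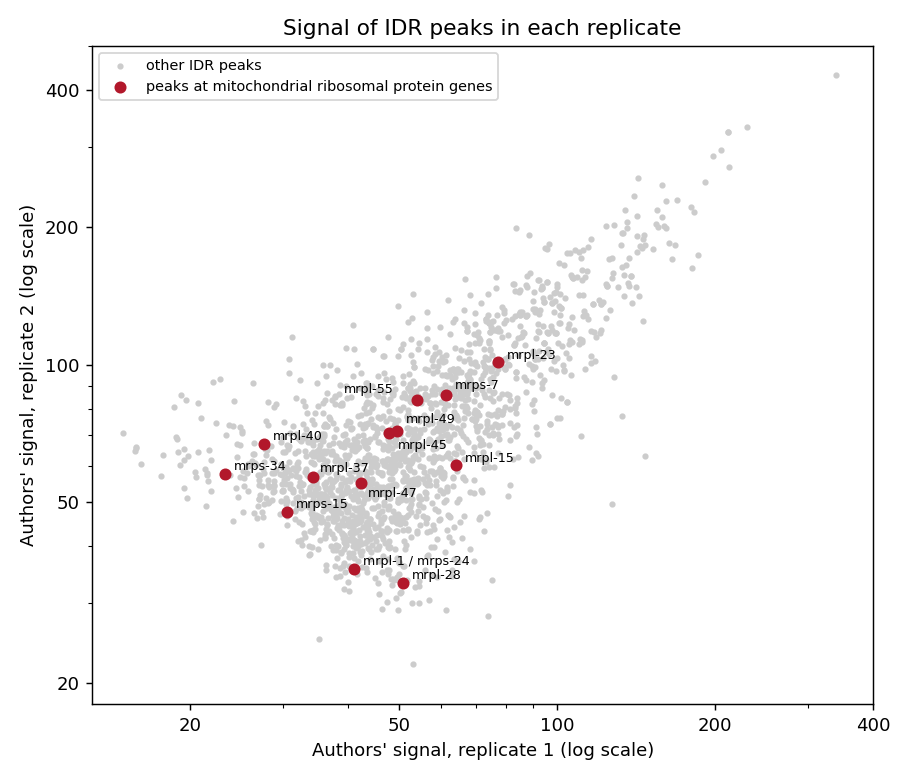
Authors' signal in replicate 1 (x, log scale) against replicate 2 (y, log scale), with 1 point per IDR peak found in both replicates' lists and the 13 peaks at mitochondrial ribosomal protein genes in red. The red point of mrpl-23 (77.0 and 101) is the highest in both replicates, and that of mrps-34 (23.3 and 57.6) is the lowest in replicate 1. In replicate 2 the lowest red point is mrpl-28 (50.9 and 33.2), which is among the lowest there for its signal in replicate 1.

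Relaxing the list to pooled regions with a q-value under 0.05 brought the count to 21 of 70 genes (30%), against 10.4% of all genes. The subunits were then close, with 12 large-subunit and 9 small-subunit genes. The 7 added genes were mrpl-17 (signal 76.9, rank 1877), mrps-16 (73.4), mrps-18A (73.2), mrpl-19 (72.1), mrps-18B (64.5), mrps-10 (63.6) and mrps-28 (60.9). The step over the IDR limit was small, since mrps-15 was just inside it at 79.2 and mrpl-17 just outside at 76.9. Their summits lay 71 to 289 bp upstream of the starts, and 5 of the 7 genes were divergent from their neighbour. They ranked from 2260 to 6104 in replicate 1 and from 1656 to 4572 in replicate 2. In replicate 1 the signals of mrpl-17, mrpl-19 and mrps-18A were 33.1, 31.0 and 32.9, and in replicate 2 they were 41.8, 47.9 and 46.0.

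A pooled region of any q-value lay at 41 of the 70 genes (58.6%) and at 36.1% of all genes, but the pooled list was made to include background. At 20 of the 41 the q-value was 0.05 or more, with signals from 23.5 to 55.4. The other 29 genes had no pooled region in their window, and 21 had none in the pooled list or in the list of either replicate. The share of all genes without a region in any of these lists is not given here. One of the 21 was mrps-5. Its nearest IDR summit lay 33525 bp away.

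Some IDR peaks lay outside the window but near a start. Within 3000 bp of a start that held no peak there was a summit at 9 genes. A share of all genes for this distance is not given here, so the 9 are listed as places only. Just outside the window was mrps-28, with a summit at -1039 bp that ranked 8 in the whole list (signal 407), more than any peak inside a window of the family, and whose nearest protein-coding start was that of Y43F8C.7. Others on the upstream side were mrps-21 at -1101 bp (rank 212), mrpl-48 at -1226 bp (rank 1000), mrps-18.C at -1361 bp (rank 1372), mrpl-32 at -2610 bp (rank 175) and mrpl-20 at -2847 bp. The peaks near mrps-21, mrpl-48, mrps-18.C and mrpl-32 are the same ones that are counted further on at the next gene upstream. On the downstream side were mrpl-51 at 1345 bp, mrps-23 at 1735 bp (rank 690) and mrps-6 at 2390 bp (rank 261). With a window of 2000 bp upstream, 18 genes held a peak (25.7%), 7 of them for the small subunit, against 9.01% of all genes.

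The position of the next gene upstream split the family. A gene was called divergent when that neighbour lay on the other strand with its start within 2000 bp, and operon-like when the neighbour lay on the same strand and ended within 1000 bp or overlapped. Operon-like spacing comes from distances alone, and an annotation of operons was not used here. Of the 28 divergent genes of the family 8 held a peak (28.6%), against 13.9% of all divergent genes. Of the 34 operon-like genes 2 held one (5.88%), mrpl-1 and mrpl-23, against 4.01% of all such genes. The remaining 8 genes included 4 with a peak, mrpl-15, mrpl-28, mrpl-47 and mrpl-55, against 4.46% of all genes of that kind. That class depends on the limits, since a gap of 500 bp made it 4 of 13 (30.8%, all genes 4.40%) and a limit of 1000 bp between divergent starts made it 4 of 10 (40%, all genes 5.03%). The operon-like class had a median gap of 107 bp to the neighbour and held 21 of the 29 genes with no pooled region. Of all protein-coding genes only 36.1% had a pooled region, and the share of all operon-like genes is not given here. Within that class the share with a peak was close to the one over all genes, and the 4 small-subunit genes with a peak were all divergent.

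For operon-like genes, the chain of same-strand neighbours was followed upstream to its first gene. An IDR peak lay in the window of that first gene for 15 of the 34 (44.1%), against 12.6% of all operon-like genes. Apart from mrpl-1, whose head is emc-6 with a start 35 bp away, these 14 genes held no peak at their own start. They stood behind 13 distinct peaks with signals from 81.7 to 210.6 and a median rank of 845, and the starts of gene and head were 684 to 6330 bp apart. For 10 of the 14 the head was the next gene. The strongest was the peak at rpn-3, a proteasome subunit gene, before mrpl-32 (rank 175, signal 210.6). Next were F29B9.11 before mrps-21 (199.6), ech-5 before mrpl-46 (191) and nrde-2, a gene of nuclear RNA interference, before mrps-14 (169.8).

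The other heads gave weaker peaks. The peak at clsp-1, before mrpl-54, had a signal of 139, and that at natc-1, an N-acetyltransferase subunit gene, had 133.5 and stood before both mrps-2 and mrpl-4. At eif-3.E, a translation initiation factor gene, the signal was 115, before mrps-30. Signals from 106 down to 81.7 were found at vps-37 before mrpl-48, misc-1 before mrpl-41, T14B4.3 before mrps-18.C, atp-2 (the ATP synthase beta subunit) before mrps-26, spd-1 before mrpl-38 and tag-124 before mrpl-53. The gene mrps-5 follows sel-1 at a gap of 103 bp, and no IDR peak lay at sel-1. Counting a peak at the gene's own start or at the head of its chain, 28 of 70 genes had one (40%), against 10.4% of all genes. Whether a gene and its head share a transcript was not measured here.

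**Figure D4:**
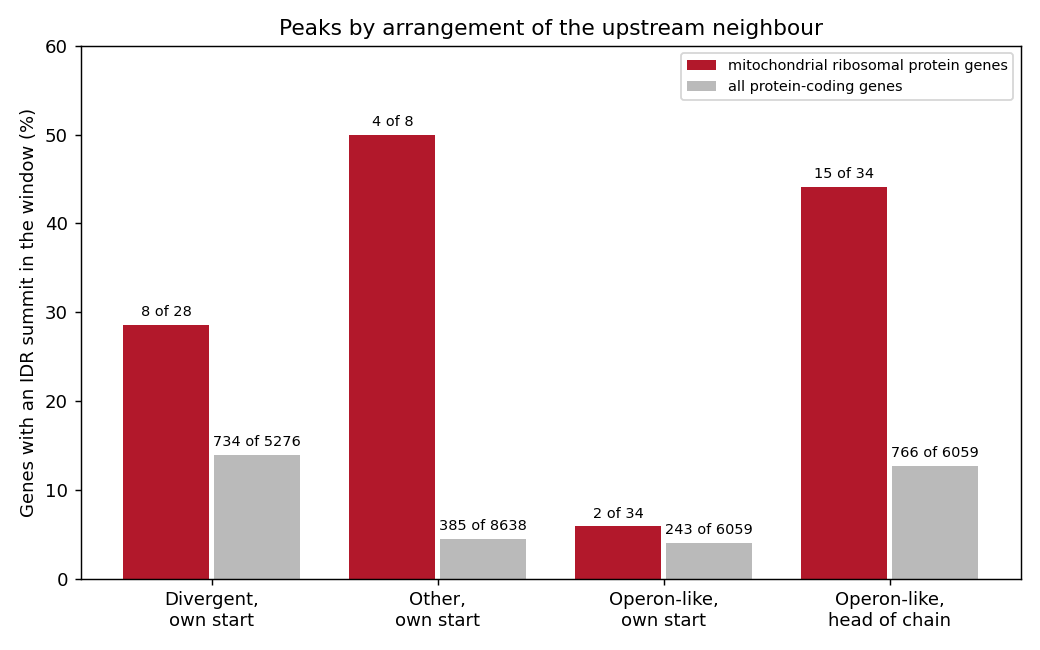
Bars give the percentage of genes with an IDR summit in the start window, for mitochondrial ribosomal protein genes (red) and all protein-coding genes (grey), by the arrangement of the upstream neighbour, with counts above. Operon-like genes of the family have 2 of 34 at their own start and 15 of 34 at the head of the chain, beside 243 and 766 of 6059 operon-like genes overall.

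By the number in the symbol, which follows bacterial counterparts for mrpl-1 to mrpl-36 and mrps-1 to mrps-21 in most cases, a peak was held by 6 of 41 genes with such a number and by 8 of 29 with a higher one, beside 6.82% of all genes. The split was 4 of 24 and 6 of 17 in the large subunit, and 2 of 17 and 2 of 12 in the small subunit. The number is a rough guide, since mrpl-47 and mrps-24 have higher numbers and bacterial counterparts. By chromosome, genes with a peak numbered 4 of 15 on I (all genes there 9.66%), 2 of 12 on II (6.96%), 3 of 22 on III (9.2%), 4 of 11 on IV (5.76%) and 1 of 10 on V (3.82%).

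Genes for other mitochondrial proteins were counted with the same window. Of 20 genes listed for mitochondrial gene expression, 4 held a peak (20%, exact interval 5.73 to 43.7%). That list mixes genes for mitochondrial DNA maintenance, transcription, translation factors, aminoacyl-tRNA synthetases and others. These were ears-2 (signal 267), mtss-1, the mitochondrial single-stranded DNA-binding protein (141), mma-1 (119) and gfm-1, an elongation factor (113), and dap-3, which encodes a small-subunit protein under another name, held none. Another 6 symbols of that list matched no gene, gfm-2, mtif-2, mtif-3, mtrf-1, ptcd-1 and wars-2. Of 18 import and chaperone genes 7 held a peak (38.9%, interval 17.3 to 64.3%), namely tomm-20, ddp-1, timm-23, tin-9.2, mppb-1, hsp-6 and hsp-60. The symbol timm-50 matched no gene. Of 45 respiratory chain genes 16 held one (35.6%, interval 21.9 to 51.2%).

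The cytosolic ribosomal protein genes held peaks at 52 of 81 (64.2%, interval 52.8 to 74.6%), above the interval of the mitochondrial ribosomal protein genes. The strongest peak per gene had a median signal of 98.1 in the mitochondrial family, 129 in the cytosolic one and 112 over all genes with a peak. Counting error in these intervals leaves out that neighbouring genes share peaks, as rpl-28 with mrpl-49 and asg-1 with mrps-15.

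Short sequences were looked for within 50 bp of the summits on both strands, and a class of factor is named only where one was assigned to the sequence. The homeodomain sequences TTAATTA and TTAATTG, which both contain TAAT, were found at 0 of the 13 peaks, a count that allows a share of up to 23.1%, taking 3 counts of the 13 as the limit of a count of 0. Each was found at 1.36% of all IDR peaks, and in 3.86% and 3.10% of the windows upstream of all starts. The core TAAT alone was found at 9 of 13 peaks (69.2%), at 38.8% of IDR peaks and in 69.9% of upstream windows. CTGCGTC was found at the mrps-7 peak only, against 13.3% of IDR peaks and 1.45% of upstream windows. GAGAGA was found at the mrpl-40 peak only, against 28.9% and 8.86%. The GATA sequence TGATAA was found at the mrpl-15 peak only, against 2.55% and 12.6%. None of the 13 held the E-box CACGTG (2.72% of IDR peaks, 2.47% of upstream windows), the ETS sequence CCGGAAG (0.435% and 0.436%), the splice acceptor TTTCAG (4.13% and 25.7%) or TATAAA (5.49% and 19.4%). The 101 bp windows of the 13 peaks had a median G+C content of 46.5%, from 34.7% at mrpl-1 and mrps-24 to 61.4% at mrpl-37. The median was 47.5% over all IDR peaks and 32.7% over the upstream windows.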

How the data were processed

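COG-1-GFP ChIP-seq regions of 2 biological replicates were analysed from the deposited ce11 lists, 1 for each replicate, 1 for the pooled replicates and 1 thresholded by IDR. Per the deposited file listing, the authors made the replicate and pooled lists from the alignments with a control alignment, as peaks and background for the thresholding. Which aligner and caller were used, and at what IDR threshold, is not given in the sources used here. Each region's signal is the authors' deposited value. How it was scaled to depth was not given. Signals of the 2 replicates are printed side by side, but their sizes cannot be compared between lists, and the rank inside each list is given for that. The deposited q-values, on the −log10 scale, were turned back to q. Sequencing depth was not used here, and the precision rests on numbers of genes and peaks.

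Gene starts came from Ensembl release 115 and sequence from the RefSeq WBcel235 genome. The ce10 lists were not used here. Python 3.11.15, NumPy 2.4.6, pandas 2.3.3, SciPy 1.17.1 and Matplotlib 3.10.9 were used, and the counting was tested on simulated data. A replicate alone was represented by its 1841 regions of highest signal. The genes, lists, sequences and classes of arrangement were chosen with earlier results of these data known. Genes named are those with an IDR peak, those within 3000 bp of a summit or nearest to one, the 5 with the highest pooled signal without an IDR peak, and genes that share a peak or head a chain. Alternatives covered the window, the assignment of peaks, the list of regions, each replicate alone, tRNA genes and the motif window. The counts for heads of chains and GCGCTCC, with mrps-5, mrps-10 and the genes of the comparison lists, were chosen or named after their values were seen.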

Additional observations from a re-analysis of the deposited data

How the results depend on the processing

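The count of genes with a peak was within 1.5 times 14 for windows from 500 bp upstream and 250 bp downstream (11, all genes 5.41%) to 2000 bp upstream (18, 9.01%), for any overlap of a peak with the window (16, 7.44%), for all annotated transcript starts (14, 7.30%), without peaks near tRNA genes (14, 6.61%), for the nearest start alone (11, 8.16%) and for q under 0.05 (21, 10.4%). The shortest window lost mrpl-15, mrpl-23 and mrpl-37. Keeping the 920 peaks of higher signal, fewer by construction, left 6 genes (8.57%, all genes 3.51%), 5 large-subunit and 1 small-subunit, with 6 distinct peaks, 8 operon-like genes with a peak at the head of the chain (all operon-like genes 6.44%) and 14 genes with either (all genes 5.35%). The small-subunit count was 7 with the window of 2000 bp and 9 with q under 0.05, where distinct peaks numbered 20. Leaving out each replicate in turn gave 10 to 13 genes, 8 to 9 large-subunit, 2 to 4 small-subunit and 9 to 13 distinct peaks. Operon-like genes with a peak at the chain head numbered 14 without replicate 1 (all operon-like genes 12.81%) and 13 without replicate 2 (10.99%). Genes with a peak at their own start or at the head numbered 27 without replicate 1 (all genes 10.38%) and 21 without replicate 2 (9.583%). The low small-subunit count came without replicate 2. Within 100 bp of the summit, TGATAA was found at 3 peaks (23.1%), against 7.60% of IDR peaks and 22.8% of 201 bp upstream windows. GAGAGA was found at 2 (15.4%, against 44.4% and 16.4%) and CTGCGTC at 2 (15.4%, against 19.9% and 3.25%). TTTCAG was found at 1 (7.69%, against 12.8% and 36.9%) and TATAAA at 1 (7.69%, against 13.4% and 30.5%). GCGCTCC was found at 6 (46.2%, against 5.76% and 1.33%), and in the 201 bp upstream windows of 5 of the 70 genes. With a gap of 500 bp, 13 of 29 operon-like genes had a peak at the head (44.8%), against 606 of 4003 such genes (15.1%). No paired analysis was possible because both replicates belong to 1 group. The authors used a control alignment in making the replicate and pooled lists. Beyond that, depth and background cannot be weighed from these lists, since an input library was not analysed here.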
